A study of Mus musculus with 4 samples.

Results

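The pair of spinal cord arrays described here compares adrenalectomized, nerve-ligated mice (ADX+PSL) at ZT10, late in the light phase, with ADX+PSL mice at ZT22, late in the dark phase. ZT is the time in hours after lights on. The pair makes up 2 of the 4 arrays of the study. A probe was kept where the scanner software called it well above background on both ADX+PSL arrays, which held for 25376 of 39429 probes and gave 19311 of 30165 genes. The other 2 arrays are of sham-operated, ligated mice (sham+PSL) at the same times, and their values stand beside those of the pair. All mice were male ICR mice, an outbred stock, killed on day 7 after partial ligation of the right sciatic nerve (PSL), an operation that makes the hindpaw painful to touch. In ADX+PSL mice the adrenals were removed and saline was given to drink, while in sham+PSL mice the adrenals were only exposed. The study asked which spinal genes follow the daily rhythm of corticosterone, the adrenal glucocorticoid of rodents. The pair described here asks what differs between the 2 times where that source is gone. The mice of the 2 times are different animals, and how many stood behind each RNA, and which side of the cord was used for the arrays, is not given in the sources used here. With 1 array per condition, time, animal and hybridisation cannot be told apart, and no test of a difference was possible. The times of the ADX+PSL arrays are those of the sample labels. The list of genes that the study printed gives its time ratios in ADX+PSL the other way round, as the inverse of those the labels give wherever its genes could be matched to a kept probe and differed, while its ratios in sham+PSL run as labelled. Which of these is right is not settled by the deposited files. Every direction between the times in ADX+PSL below therefore rests on the labels of those arrays. So does every likeness or contrast of direction with sham+PSL, and every comparison of the operations at the same time. The sizes of the differences between the times within ADX+PSL do not.

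In mammals, each tissue holds a clock in which CLOCK and ARNTL (BMAL1) switch on genes through E-boxes. Among these genes are the Per and Cry repressors, which turn the pair off again, and the REV-ERB receptors Nr1d1 and Nr1d2, which hold Arntl down and compete with the ROR receptors for the same element. Dbp, Tef and Hlf activate, and Nfil3 represses, a further layer of daily genes through D-boxes. Corticosterone peaks before the active phase and is one of the signals that set tissue clocks. It acts through the glucocorticoid receptor Nr3c1, which binds DNA and directly raises genes such as Per1, Sgk1, Fkbp5 and Tsc22d3. Feeding, body temperature and nerve activity also carry daily signals to tissues.

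Promoter windows of 4 clock genes are shown because they hold, or lack, the letters through which clock factors act. Each runs from 250 bases before to 50 bases after a transcription start of RefSeq (GRCm38.p6), 5′ to 3′ on the strand of the gene. Capitals mark the matches on either strand of the motifs searched. These were the E-box (CACGTG), the D-box (TTATGNAA), the ROR element (TAGGTCA), the core of the glucocorticoid element (ACANNNTGT) and a form of the metal element (TGCGCNC). Other forms of an element were not searched and are not marked. Of 32851 windows of all genes, 7.15% held the E-box, 3.38% the D-box, 2.61% the ROR element, 6.85% the glucocorticoid core and 15.4% the metal element. No match of 1 motif overlapped that of another in the windows shown. Ciart (chr3:95882179-95882478, minus strand) held 3 E-boxes. Per1 (chr11:69098699-69098998, plus strand) held an E-box and a D-box. Arntl (chr7:113207261-113207560, plus strand) held an ROR element, and none of the motifs occurred in the window of Dbp (chr7:45704997-45705296, plus strand). Per1 and Arntl had 2 windows each. For these genes the window shown was the first that held the motifs looked for, so it was chosen for them.
Ciart: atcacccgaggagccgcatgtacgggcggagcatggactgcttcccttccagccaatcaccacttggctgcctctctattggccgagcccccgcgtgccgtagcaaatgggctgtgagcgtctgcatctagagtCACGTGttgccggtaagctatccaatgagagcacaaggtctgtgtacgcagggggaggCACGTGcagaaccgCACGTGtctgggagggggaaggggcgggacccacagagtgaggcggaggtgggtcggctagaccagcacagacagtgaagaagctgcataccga
Per1: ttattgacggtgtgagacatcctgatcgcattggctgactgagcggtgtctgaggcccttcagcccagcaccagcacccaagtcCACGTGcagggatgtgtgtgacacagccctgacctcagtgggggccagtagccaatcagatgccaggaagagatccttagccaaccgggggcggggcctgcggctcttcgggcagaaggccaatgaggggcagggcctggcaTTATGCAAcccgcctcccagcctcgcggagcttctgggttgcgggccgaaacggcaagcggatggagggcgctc
Arntl: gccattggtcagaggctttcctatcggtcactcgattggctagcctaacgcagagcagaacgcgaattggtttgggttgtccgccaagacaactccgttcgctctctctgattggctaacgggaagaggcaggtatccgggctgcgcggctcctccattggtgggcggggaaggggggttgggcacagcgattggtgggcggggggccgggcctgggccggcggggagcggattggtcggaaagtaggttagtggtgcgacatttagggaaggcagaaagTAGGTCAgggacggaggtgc
Dbp: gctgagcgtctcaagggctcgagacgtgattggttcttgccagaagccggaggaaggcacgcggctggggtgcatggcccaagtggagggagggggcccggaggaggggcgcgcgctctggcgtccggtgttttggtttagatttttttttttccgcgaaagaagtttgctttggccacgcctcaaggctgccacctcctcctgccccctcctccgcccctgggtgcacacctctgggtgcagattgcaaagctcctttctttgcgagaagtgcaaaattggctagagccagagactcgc

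The window of the metallothionein gene Mt1 (chr8:94178839-94179138, plus strand) is shown because it held both a glucocorticoid core and a metal element, and because both metallothionein genes were past 2-fold.
Mt1: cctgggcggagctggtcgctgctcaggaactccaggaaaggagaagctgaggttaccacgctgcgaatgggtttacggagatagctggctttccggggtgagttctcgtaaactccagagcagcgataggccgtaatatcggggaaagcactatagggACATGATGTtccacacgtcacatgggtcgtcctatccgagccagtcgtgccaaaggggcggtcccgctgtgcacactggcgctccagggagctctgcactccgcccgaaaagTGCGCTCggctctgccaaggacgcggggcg

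On the array a gene is read by probes of 60 bases. The probes of 4 genes are shown as read from the deposited files, with positions on mm9, because differences described below rest on them. The Nr1d1 probe (chr11:98630526-98631028, minus strand) and the Gdpd3 probe (chr7:133914520-133914693, plus strand) span introns on the genome. The fainter C3 probe lies at chr17:57343678-57343737 on the minus strand. The 4 Fggy probes lie on the plus strand at chr4:95290194-95290253, chr4:95478800-95478859, chr4:95510817-95510876 and chr4:95589618-95589677, and thus read separate stretches of the gene.
Nr1d1: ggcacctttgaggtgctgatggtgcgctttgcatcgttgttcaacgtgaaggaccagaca
Gdpd3: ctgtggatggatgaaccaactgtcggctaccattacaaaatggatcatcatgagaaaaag
C3: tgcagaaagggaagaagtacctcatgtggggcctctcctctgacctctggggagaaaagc
Fggy probe 1: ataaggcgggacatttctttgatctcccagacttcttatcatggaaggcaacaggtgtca
Fggy probe 2: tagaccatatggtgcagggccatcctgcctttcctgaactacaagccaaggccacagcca
Fggy probe 3: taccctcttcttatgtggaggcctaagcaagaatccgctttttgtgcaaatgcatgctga
Fggy probe 4: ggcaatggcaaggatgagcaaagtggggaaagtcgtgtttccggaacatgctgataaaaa

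Levels below are intensities in arbitrary units, made comparable by quantile normalisation over the 4 arrays, and a log2 ratio is that of ZT10 over ZT22. Each ratio carries the scanner error of its 2 spots, 0.20 on the log2 scale at the median probe, which covers the spot and neither the mouse nor the array. This error is given by the scanner software, not measured between spots, and was nearly constant at 0.204 for bright probes of 1 spot. Among kept probes printed 10 times, the median SD between spots was 0.057 on the ZT10 array and 0.044 on the ZT22 array. Levels are compared between arrays for 1 probe and not between probes. In bulk tissue, fewer cells of a type and less RNA per cell cannot be told apart.

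Most spinal transcripts read nearly alike on the arrays labelled ZT10 and ZT22 in ADX+PSL. The log2 ratios had a median of 0.00 and an SD of 0.32, and 94.8% of the kept probes lay within 1.5-fold. At least 2-fold higher at ZT10 were 127 probes (0.500%), and at least 2-fold lower were 264 (1.04%). By the brightest probe of each gene, 90 genes (0.466%) were at least 2-fold higher and 198 (1.03%) at least 2-fold lower. The values nearest to the limit were 2.01-fold for Saa2 and 1.99-fold for Rmnd1 on the higher side. When the kept probes were divided by level into 10 bins, the share past 2-fold was 4.77% in the dimmest bin, with 18 higher and 103 lower, and 0.315% in the brightest. The lowest level that counted as well above background was 12.8 on the ZT10 array and 22.2 on the ZT22 array. A further 2273 probes were above background at ZT10 alone and 279 at ZT22 alone. With the level on the other array taken as no lower than that array's limit, 130 and 240 of them differed by at least 2-fold. The limit is lower on the ZT10 array, which raises the ZT22 count, so the 2 counts cannot be compared. The unequal limits also bear on the kept probes. A probe low at ZT10 could be kept down to 12.8, and one low at ZT22 only down to 22.2. The excess of lower calls among kept probes lay among dim ones, and above their median level 22 were higher and 23 lower. Where probes above background on either ADX+PSL array were counted instead, 669 were higher and 530 lower. With other background corrections the counts of kept probes dropped to between 47 and 52 higher and 67 and 73 lower. Of the 39 genes past 2-fold that are named here, 24 stayed past it in every setting tried.

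**Figure D1:**
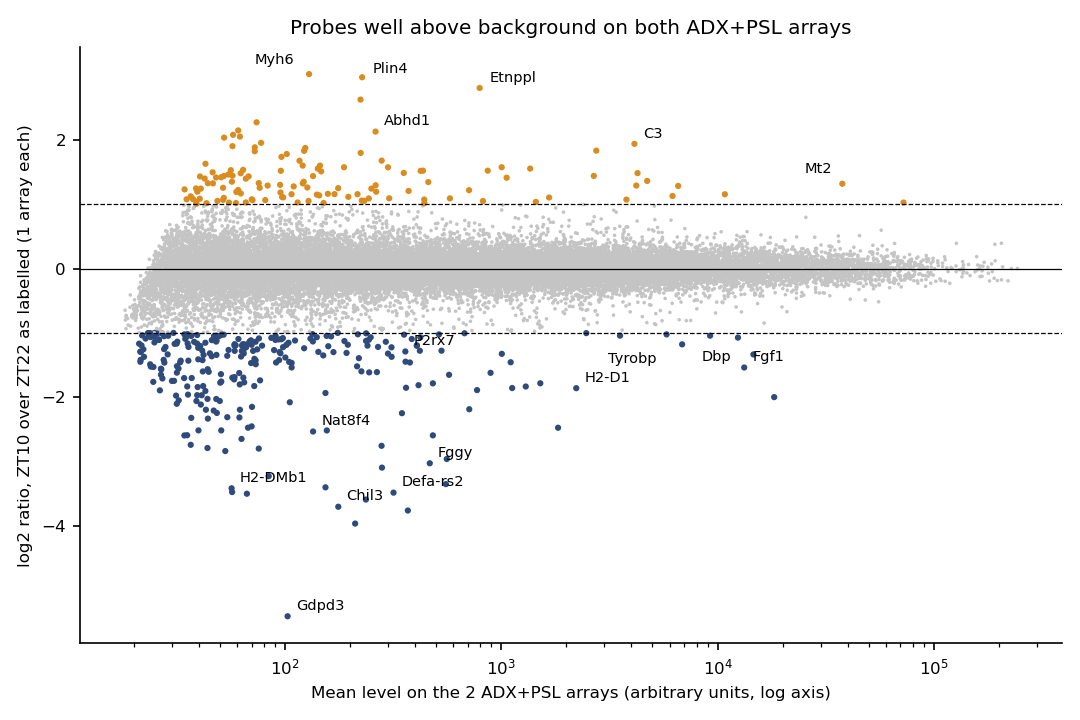
Log2 ratio of ZT10 over ZT22 in ADX+PSL against the mean level on both arrays (log axis), for the 25376 kept probes. Orange and blue points are the 127 probes at least 2-fold higher and the 264 at least 2-fold lower at ZT10, grey points the rest, and dashed lines mark 2-fold. The points past 2-fold thin out to the right, where the grey band is also narrowest.

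The tissue showed its label. Neuronal, astrocytic, oligodendrocytic and microglial markers were all measured, with 15 of 15 neuronal, 12 of 12 astrocytic, 14 of 14 oligodendrocytic and 14 of 14 microglial genes kept. Cord position was given by 16 of 19 Hox genes, and the motor neuron list, with the acetylcholine-making enzyme Chat at 1165 and 1042, was kept in full. Markers of cells from outside the cord were read in part. Of 16 genes of fast skeletal muscle 9 were kept, with summed levels of 18497 at ZT10 and 19444 at ZT22, where the sham+PSL arrays had 21720 and 16606. All 9 were higher at ZT10 in sham+PSL, with a median log2 ratio of 1.17. The sums leave out genes not kept in ADX+PSL, such as Myh4. It read 811 and 3.81 in sham+PSL, and 3.63 and 4.01 in ADX+PSL. Red cell genes summed to 100051 and 94822, and to 141541 and 23138 in sham+PSL. Meningeal fibroblast genes summed to 7946 and 8319, where the sham+PSL arrays had 24087 and 22035. Of 12 B and T cell genes 5 were kept, and Cd3d, Cd3g and Cd8a were not well above background on either array of the pair.

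Among clock genes, the activators stood slightly higher on the ADX+PSL array labelled ZT10, while Dbp, Por and several repressors stood lower. In the activating limb all 5 measured genes had a log2 ratio above 0, with a median of 0.12, against a median of 0.00 over all 19311 genes. Arntl, the partner of CLOCK, read 838 at ZT10 and 662 at ZT22, a log2 ratio of 0.34 ± 0.20 (scanner error, 1 array each). In sham+PSL it read 529 and 508, so that both ADX+PSL levels lay above both sham+PSL levels. Clock read 656 and 568, a log2 ratio of 0.21, and 553 and 576 in sham+PSL. The ROR receptors, which activate Arntl through the element in its window above, had log2 ratios of 0.10 (Rora) and 0.07 (Rorb), both within their scanner errors. Dimmer probes of these genes gave 0.51 for Rora, at 52.3 and 36.8, and -0.03 for Rorb. Npas2, a relative of Clock, was not well above background on the ZT22 array and gave no ratio.

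Of 10 measured repressors 7 had a log2 ratio below 0, and their median was -0.24, beside 0.10 in sham+PSL. None passed 2-fold. Nr1d1, the heme-sensing repressor REV-ERBα, read 189 at ZT10 and 319 at ZT22 in ADX+PSL, a log2 ratio of -0.75 ± 0.21. In sham+PSL it read 715 and 352, a log2 ratio of 1.02. The ADX+PSL array at ZT10 was thus the lowest of the 4 and the sham+PSL array at ZT10 the highest, while the ZT22 arrays lay close together. Ciart, a repressor of the CLOCK complex with E-boxes in its window, had the same order, at 61.7 and 85.4 in ADX+PSL and at 199 and 133 in sham+PSL. Its log2 ratios were -0.47 ± 0.24 and 0.58. Bhlhe40, which competes for E-boxes, read 733 at ZT10 and 1049 at ZT22, a log2 ratio of -0.52, and was nearly level in sham+PSL at 888 and 926.

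The Per genes did not differ as 1 group. Per1, which responds to glucocorticoids and to the clock, was the only repressor whose log2 ratio was above its scanner error on the positive side. It read 2124 at ZT10 and 1601 at ZT22, a log2 ratio of 0.41 ± 0.20, beside 2977 and 2109 in sham+PSL, a log2 ratio of 0.50. Both levels were lower in ADX+PSL than in sham+PSL at the same labelled time, and the ratio differed little. Per2 and Per3 were lower at ZT10, at 99.2 and 122 for Per2 and at 114 and 135 for Per3, with log2 ratios of -0.30 and -0.25. Cry1, at 40.8 and 41.0, and Cry2, at 6915 and 6331, differed by less than their scanner errors, with log2 ratios of -0.01 and 0.13. Among the repressors, the values of Bhlhe41, Nr1d2 and Cry2 depended on the probe. For Cry2 the probes gave 0.13 and -0.15. For Bhlhe41 the probes gave -0.23 and 0.49, and for Nr1d2 the brighter probe gave 0.10 and the other -0.15, the brighter being placed on another chromosome than the gene by the deposited annotation.

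Dbp was the clock output with the largest difference and the only one of 24 measured clock genes past 2-fold, where 1.03% of all genes were at least 2-fold lower. DBP, the D-site binding protein, passes the rhythm of the clock on to metabolic genes. Its brighter probe read 6433 at ZT10 and 13262 at ZT22 in ADX+PSL, a log2 ratio of -1.04 ± 0.20. In sham+PSL the probe read 22527 and 16046, a log2 ratio of 0.49. A second probe read 4560 and 10320 in ADX+PSL and 18103 and 12315 in sham+PSL, with log2 ratios of -1.18 and 0.56. Both probes thus had the lowest level of the 4 arrays in ADX+PSL at ZT10, and both ADX+PSL levels lay below both sham+PSL levels. Only 179 of the 19311 genes had a lower log2 ratio than Dbp.

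The other outputs differed less. Por, the electron donor of microsomal P450 enzymes, read 4035 and 5988, a log2 ratio of -0.57, and Usp2, a clock-driven deubiquitinase, had -0.28. The D-box factors Tef and Hlf had log2 ratios of 0.17 and -0.09, and the D-box repressor Nfil3 read 1015 and 866, a log2 ratio of 0.23. Wee1 had -0.13, and Tspan4 and Lonrf3 were level at 0.01, although a dimmer Lonrf3 probe gave 0.31. Of the promoter windows of clock genes, E-boxes occurred in 4 of the 8 repressors with a window (Per1, Cry1, Ciart and Bhlhe41), whose log2 ratios ran from -0.47 to 0.41, in 3 of 8 outputs (Tef, Tspan4 and Lonrf3) and in 0 of 4 activators, against 8.09% of 27025 genes. The window of Dbp held no E-box of these letters, and Nr1d1 had none either.

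**Figure D2:**
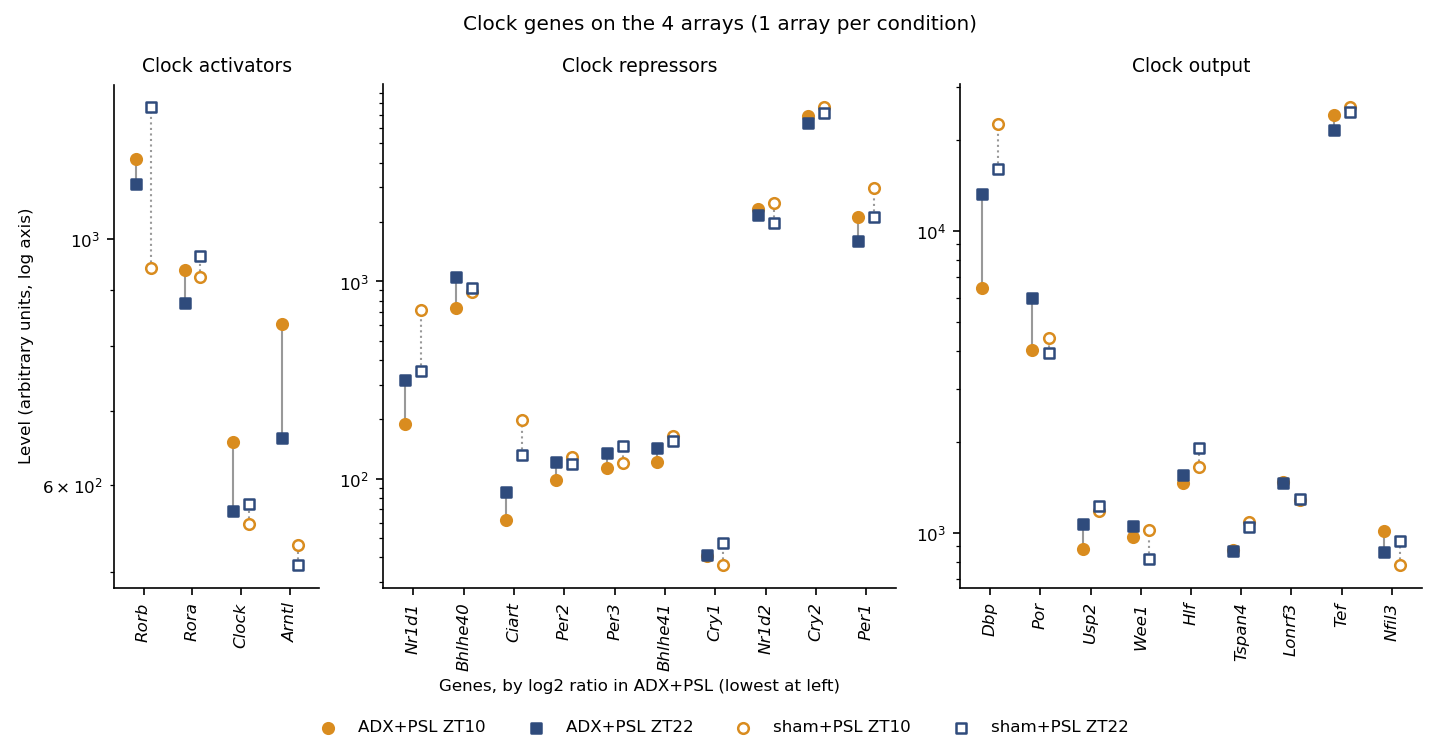
Levels (arbitrary units, log axis) of the clock genes named here on the 4 arrays, with filled symbols for ADX+PSL, open symbols for sham+PSL, circles for ZT10 and squares for ZT22. Lines join the 2 times of 1 operation. For Dbp, Nr1d1 and Ciart the filled circle is the lowest symbol and the open circle the highest, while for Per1 the circle lies above the square in both operations.

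Genes that respond to glucocorticoids were mostly higher on the ADX+PSL array labelled ZT10. All 24 listed genes were measured, 23 had a log2 ratio above 0, and the median was 0.36, against 0.00 over all genes. At least 2-fold higher were 4 of the 24, against 0.466% of all genes, and none was 2-fold lower. This list, like the others, was chosen with earlier results of these data known. In sham+PSL 20 of the 24 had a log2 ratio above 0, with a median of 0.25.

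Plin4, a coat protein of lipid droplets, had the second highest log2 ratio of all genes. It read 637 at ZT10 and 81.0 at ZT22 in ADX+PSL, a log2 ratio of 2.97 ± 0.22, and 277 and 89.3 in sham+PSL, a log2 ratio of 1.63. Both ZT22 levels were alike, and the ADX+PSL array at ZT10 was the highest of the 4. Sult1a1, a phenol sulfotransferase, read 516 and 173, a log2 ratio of 1.57 ± 0.21, and 547 and 247 in sham+PSL, a log2 ratio of 1.14. Its second probe gave 1.68 and 1.13. Here the ZT10 levels of the 2 operations lay close together and the ZT22 levels below them.

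The metallothioneins Mt1 and Mt2 bind zinc and copper and are raised by metals, stress and glucocorticoids. Mt2 read 59635 at ZT10 and 23919 at ZT22 in ADX+PSL, a log2 ratio of 1.32 ± 0.20, and 73296 and 55142 in sham+PSL, a log2 ratio of 0.41. Mt1 read 103402 and 50783, a log2 ratio of 1.03 ± 0.20, and 94030 and 74085 in sham+PSL. In both genes the ADX+PSL array at ZT22 was the lowest of the 4. A second probe of Mt1 gave a log2 ratio of 0.33, and the mean of both 0.68.

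The best known targets of the receptor differed less. Sgk1, a kinase of ion transport, read 1836 at ZT10 and 1453 at ZT22, a log2 ratio of 0.34 ± 0.20, where sham+PSL had 3889 and 1748, a log2 ratio of 1.15. The 2 ZT22 levels and the ADX+PSL level at ZT10 lay together, and the sham+PSL level at ZT10 stood apart. Fkbp5, a co-chaperone of the receptor, read 1398 and 1083, and 1515 and 1201 in sham+PSL, with log2 ratios of 0.37 and 0.33. Tsc22d3 (GILZ) had 0.27 and 0.23, Klf9 0.03 and 0.18, and Nfkbia, the inhibitor of NF-κB, -0.08 and 0.47. Hif3a stood at 145 and 75.2 in ADX+PSL and at 348 and 50.6 in sham+PSL, log2 ratios of 0.95 and 2.78. Cdkn1a (p21), read by 10 spots, had 0.67 ± 0.065. Angptl4, a lipase inhibitor raised by fasting and glucocorticoids, read 980 and 715 in ADX+PSL and 483 and 1189 in sham+PSL, so that its log2 ratios of 0.45 and -1.30 had opposite signs. A glucocorticoid core occurred in the windows of 5 of 21 listed genes (Sgk1, Mt1, Lcn2, Glul and Fam107a), against 7.90% of 27025 genes with a window, and in none of Plin4, Sult1a1 and Mt2.

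The receptors and enzymes of corticosteroids were close to level. Nr3c1, the glucocorticoid receptor, read 6677 on both ADX+PSL arrays, and 6282 and 7909 in sham+PSL. A dimmer probe of it read 210.1 and 257, a log2 ratio of -0.29. Nr3c2, the mineralocorticoid receptor, had a log2 ratio of -0.18. Hsd11b1, which regenerates corticosterone inside cells and was read by 10 spots, was lower at ZT10 in both operations, at 1892 and 2799 in ADX+PSL and at 1659 and 2847 in sham+PSL, with log2 ratios of -0.56 and -0.78. The list of 6 had a median of 0.05.

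**Figure D3:**
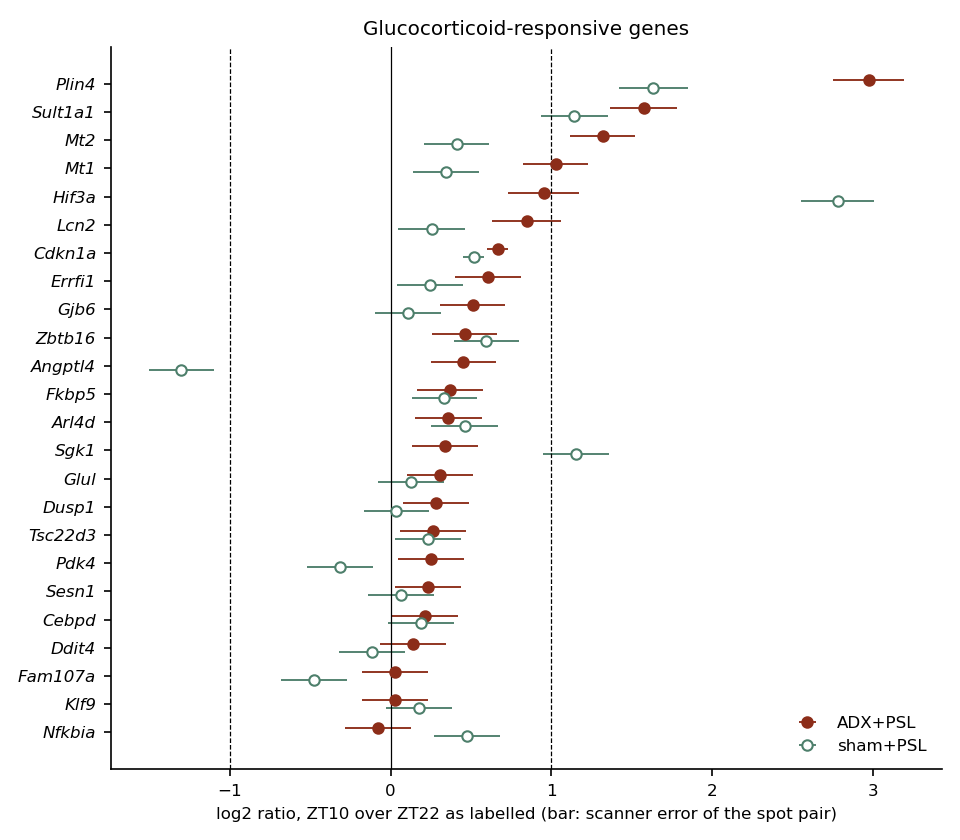
Log2 ratio of ZT10 over ZT22 for the 24 glucocorticoid-responsive genes in ADX+PSL (filled) and sham+PSL (open), 1 array per condition, with bars for the scanner error of the spot pair and dashed lines at 2-fold. In ADX+PSL 23 of the 24 points lie to the right of 0, from 0.03 to 2.97, and Nfkbia lies at -0.08.

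Temperature-linked genes split by direction. Heat shock genes, which encode chaperones, were above 0 in 11 of 12, with a median of 0.20 and no gene past 2-fold. Hspa1a, the inducible HSP70, had the largest value of the list, at 191 and 130.1, a log2 ratio of 0.55 ± 0.21, and 132 and 85.1 in sham+PSL. Dnajb1 (HSP40) had 0.41, Hspe1 0.40 and Hsp90aa1 0.27. The 2 cold-induced RNA-binding proteins ran the other way. Rbm3 read 4337 at ZT10 and 6821 at ZT22, a log2 ratio of -0.65 ± 0.20, with -0.84 from a second probe, and Cirbp read 4731 and 6137, a log2 ratio of -0.38. Both were also lower at ZT10 in sham+PSL, at 6104 and 9067 for Rbm3 and at 7245 and 8661 for Cirbp.

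The remaining systemic lists had medians between 0.02 and 0.20. Endoplasmic reticulum stress genes had a median of 0.02 over 14 genes, with Calr, a chaperone of the lumen, lowest at -0.31. Immediate early genes, which follow neuronal activity, had a median of 0.09 over 13. Egr4 (0.70), Nr4a1 (0.48), Fosl2 (0.46) and Egr1 (0.41) were higher at ZT10, Fos had 0.10 and Arc -0.24. Ier2 was past 2-fold lower at the dim levels of 33.8 and 86.4, a log2 ratio of -1.36 ± 0.25 that was -0.55 without background subtraction. Genes of fasting and fuel use had a median of 0.20 over 10, with Klf15, a glucocorticoid-responsive factor, at 0.47 in ADX+PSL and 0.52 in sham+PSL. Txnip, which restrains glucose uptake, read 216 and 310.0 in ADX+PSL and 457 and 334 in sham+PSL. Of 23 genes of cholesterol and fatty acid synthesis 15 were above 0, with a median of 0.11. Of these Cyp51, the sterol demethylase, was past 2-fold, at 638 and 303, a log2 ratio of 1.07 ± 0.21, and level in sham+PSL at 581 and 535.

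**Figure D4:**
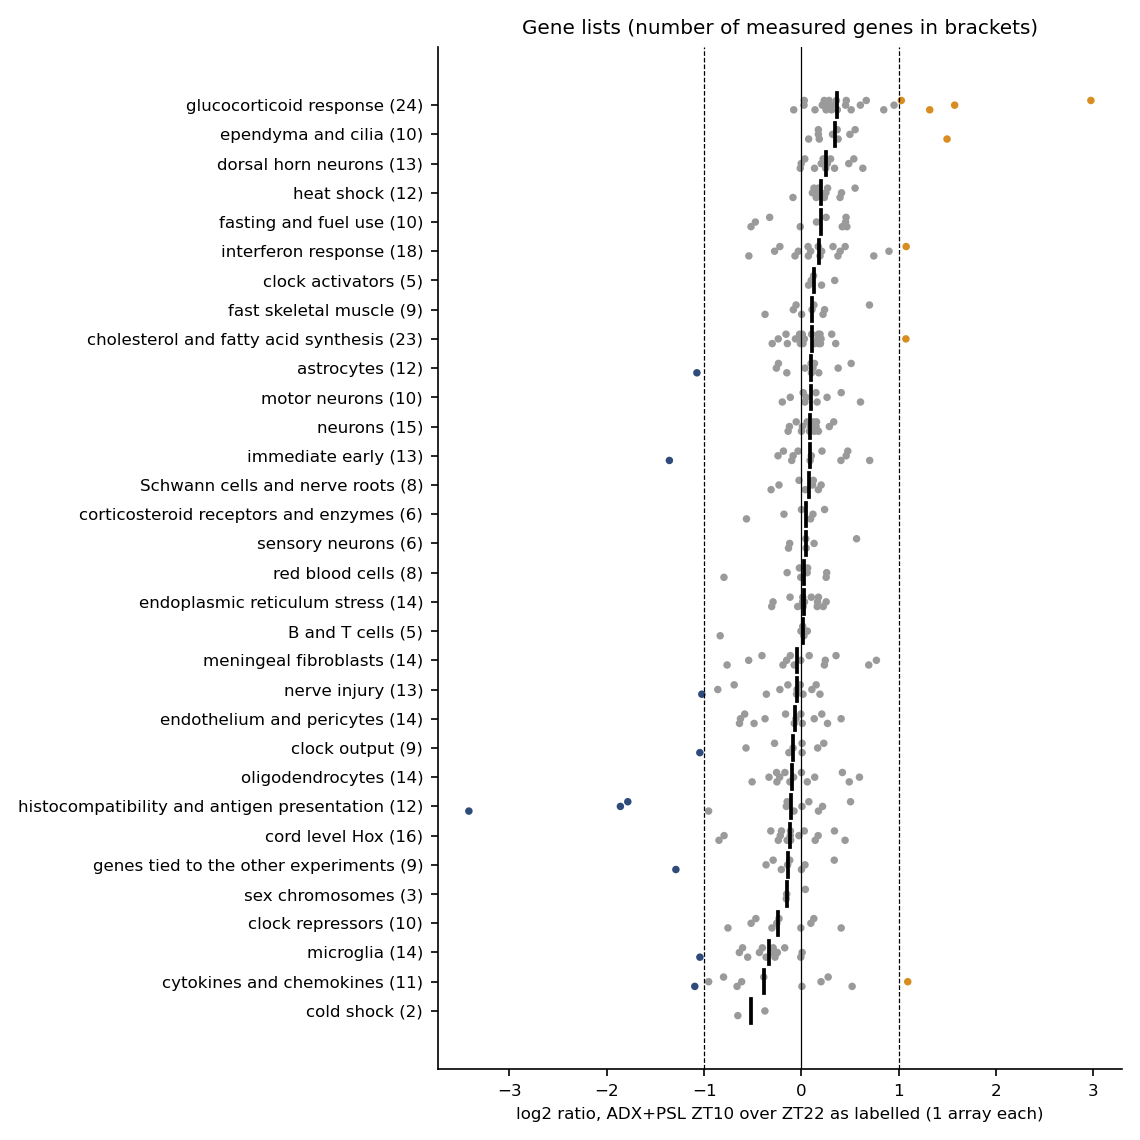
Log2 ratio of ZT10 over ZT22 in ADX+PSL for the measured genes of 32 lists, 1 point a gene, with black bars at the list medians, dashed lines at 2-fold, and orange and blue points past it. Medians run from -0.51 for the cold shock pair to 0.36 for the glucocorticoid-responsive genes.

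Of 9 genes of glucocorticoid signalling, ATP release and purinergic receptors that bear on the other experiments of the study, 8 lay within 2-fold. P2rx7, an ATP-gated channel of microglia and other glia, read 230.2 at ZT10 and 563 at ZT22, a log2 ratio of -1.29 ± 0.21, and 464 and 301 in sham+PSL. A dimmer P2rx7 probe gave 53.0 and 66.0, a log2 ratio of -0.32, so that the size depended on the probe. The purinergic receptor P2ry12 read 1142 and 1469, a log2 ratio of -0.36, and 1103 and 1461 in sham+PSL, nearly the same values in both operations. P2ry6 had -0.21 ± 0.065 over 10 spots, P2rx4 -0.14, and the microglial transcription factor Irf8 -0.29. The release channels Panx1 and Gja1 (connexin 43) were level, at 3536 and 3843 for Panx1 and at 1493 and 1455 for Gja1. The median of the list was -0.14.

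Microglial genes were lower at ZT10. Of 14, 13 had a log2 ratio below 0, with a median of -0.34, and in sham+PSL 14 of 14 were below 0 with a median of -0.46. Tyrobp, the adaptor DAP12 that signals for TREM2, read 2467 at ZT10 and 5083 at ZT22, a log2 ratio of -1.04 ± 0.20, and 3332 and 5297 in sham+PSL. Aif1 (IBA1) had -0.64, the lysosomal Cd68 -0.60, Trem2 -0.55 and the complement genes C1qa, C1qb and C1qc -0.40, -0.43 and -0.27. Cx3cr1 and Itgam were level at -0.01 and 0.01 in ADX+PSL, beside -0.55 and -0.26 in sham+PSL. The summed level of the list was 94203 at ZT10 and 105620 at ZT22.

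Genes induced by nerve injury were level or lower at ZT10, with 9 of 13 below 0 and a median of -0.05. Sprr1a, an injury-induced protein of regenerating neurons, read 4077 and 8288, a log2 ratio of -1.02 ± 0.20, and 6391 and 8953 in sham+PSL. Atf3, the stress factor of injured neurons, read 1093 and 1982, a log2 ratio of -0.86, and 2688 and 2226 in sham+PSL. Gal (galanin) had -0.69 in ADX+PSL and -0.83 in sham+PSL, while Npy and Gap43 were level at 0.19 and -0.01. Of 20 cytokines and chemokines 11 were measured, and Il1b, Il6 and Tnf were not well above background on either array of the pair. Ccl2, the monocyte attractant, read 264 and 563 over 10 spots, a log2 ratio of -1.10 ± 0.065, and 441 and 745 in sham+PSL. Ccl9 was the one member 2-fold higher, at 443 and 208, while sham+PSL read 149 and 1178.

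Interferon-responsive genes leaned upward in ADX+PSL and downward in sham+PSL. Of 18 measured, 13 had a log2 ratio above 0 in ADX+PSL, with a median of 0.18, and 18 of 18 were below 0 in sham+PSL, with a median of -0.56. Their levels were low. Oas2, an antiviral synthetase, read 50.9 and 24.1, a log2 ratio of 1.08 ± 0.36 that was 0.35 without background subtraction, and 17.4 and 41.9 in sham+PSL. Oas1a had 0.90 and Usp18 0.74, while Ifit3, among the brightest of the list, was level at 1476 and 1405. The difference between the operations was not tested.

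Histocompatibility genes held some of the largest differences of the comparison, in 3 of 12 measured members, against a background of 1.03%. H2-DMb1, a peptide-loading chain of class II, read 17.3 at ZT10 and 185 at ZT22, a log2 ratio of -3.42 ± 0.30, and 304 and 23.6 in sham+PSL. Its ZT10 level in ADX+PSL was dim, and over the settings tried this log2 ratio ran from -3.42 to -1.49. The class I genes H2-D1 and H2-Q7 read 1166 and 4232 and 816 and 2811, log2 ratios of -1.86 and -1.78. In sham+PSL they read 10881 and 953 and 7024 and 732. All 3 had their highest level in sham+PSL at ZT10, and differed by 3.44-fold or more within ADX+PSL. Class I and class II genes are polymorphic and have close relatives, so that a probe may read a mixture of them, and in an outbred stock genotype and time cannot be told apart. Neither the partner chain H2-DMa (0.17), nor H2-K1 (0.08), nor B2m (-0.08), the shared light chain of class I, differed by more than its scanner error, and the list median was -0.11.

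Astrocyte genes were near level, with a median of 0.10 and 8 of 12 above 0. Aldoc, Aqp4 and Gjb6 had 0.38, -0.26 and 0.51. Gfap, the astrocyte filament, depended on the probe. The brightest probe read 8565 and 18028, a log2 ratio of -1.07 ± 0.20, the dimmest 571 and 912, a log2 ratio of -0.68, and the remaining one 10028 and 10455, a log2 ratio of -0.06. Oligodendrocyte genes had a median of -0.10, with Mal (0.60), Mobp (0.49) and Mbp (0.42) above and Opalin (-0.51) and Olig1 (-0.33) below 0.

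The 15 general neuronal markers lay close to level. They had a median of 0.09 and none exceeded 0.33, which was Tubb3. Dorsal horn genes were above 0 in 11 of 13, with a median of 0.25 and none past 2-fold. The opioid precursors were among the highest of these, Pdyn at 3875 and 2503, a log2 ratio of 0.63 ± 0.20, and Penk at 33326 and 23791, a log2 ratio of 0.49. In sham+PSL Pdyn read 2872 and 3428 and Penk 33026 and 26166. Tac1, the substance P gene, had 0.34. Motor neuron genes had a median of 0.10 over 10, with Mmp9, read by 10 spots, highest at 0.61 ± 0.071. Of the sensory neuron genes 6 of 11 were kept, with a median of 0.05 and Calcb, a CGRP gene, at 0.57.

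Ependymal and ciliary genes were above 0 in all 10 measured, with a median of 0.34, and 2 of 9 were above 0 in sham+PSL, with a median of -0.12. Ak7, an adenylate kinase of cilia, was past 2-fold at the dim levels of 77.7 and 27.5, 2.82-fold higher at ZT10, and within 2-fold (a log2 ratio of 0.60) without background subtraction. Mia had 0.55, Tmem212 0.50, Cfap126 0.37, Dynlrb2 0.38, and Foxj1, the master factor of motile cilia, 0.17. The summed level of the list was 8021 at ZT10 and 6208 at ZT22. Ependyma lines the central canal, and the part of its share of the RNA in other differences was not tested.

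Lists of other cells were near 0 in the pair. Endothelial and pericyte genes had a median of -0.06 over 14, although Slco1a4 (-0.64), Rgs5 (-0.63) and Cldn5 (-0.58) were lower and Vwf (0.41) was higher. Meningeal fibroblast genes had -0.04 over 14, with Mgp at 0.77 and Lum at -0.76. Schwann cell and nerve root genes had 0.08 over 8, with Pmp22 lowest at -0.31. Muscle genes had a median of 0.11 and red cell genes of 0.03, where the sham+PSL pair had 1.17 and 3.05. Within these lists Myh8 had 0.70 and Hbb-b2 -0.80 in ADX+PSL, and 3.08 and 3.10 in sham+PSL. B and T cell genes had a median of 0.01 over 5, of which Cd79b, at 24.2 and 43.2, had -0.83.

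Genes of cord position and sex bear on whether the 2 RNAs were drawn alike. Of 16 measured Hox genes 11 were below 0, with a median of -0.11. Hoxb8 read 12244 and 22026, a log2 ratio of -0.85 ± 0.20, and Hoxb9 1829.6 and 3174, a log2 ratio of -0.79, while the more caudal Hoxa11, Hoxd10 and Hoxc10 had 0.34, -0.03 and -0.11. In sham+PSL Hoxb8 read 10769 and 13947 and Hoxb9 1831 and 1839. The Y-linked genes Ddx3y, Uty and Eif2s3y had log2 ratios of -0.16, -0.15 and 0.04, and Xist, made in female cells, had no probe above background on the 4 arrays.

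The genes with the highest log2 ratios were of mixed function. Myh6, a cardiac myosin chain, led with 368 at ZT10 and 45.3 at ZT22, a log2 ratio of 3.02 ± 0.25, and 75.2 and 54.5 in sham+PSL. Etnppl, an enzyme that breaks down phosphoethanolamine, read 2101 and 300.2, a log2 ratio of 2.81 ± 0.21, and 1540.5 and 158 in sham+PSL, a log2 ratio of 3.28. It thus was higher at ZT10 by 7.00-fold in ADX+PSL and by 9.73-fold in sham+PSL. Abhd1, a predicted hydrolase, read 548 and 125, and the reverse in sham+PSL at 136 and 542. Cyp2j7, a P450 gene, likewise had log2 ratios of 1.82 and -1.96. Spata48 and Fcgr1, an IgG receptor of myeloid cells, read 126 and 30.4 and 106 and 25.8 at the low end of the range. Of the 12 genes with the highest ratio 4 are named by a clone or locus number.

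C3, the central complement component, was higher at ZT10 by both of its probes. The brighter one, read by 10 spots, gave 8079 and 2109, a log2 ratio of 1.94 ± 0.065, and 3267 and 2828 in sham+PSL. The fainter one, shown above, gave 5189 and 1457, a log2 ratio of 1.83, and 2217.5 and 1928 in sham+PSL. The ADX+PSL array at ZT10 was the highest and that at ZT22 the lowest of the 4 in both probes. Other bright genes at least 2-fold higher were Nrap, a muscle anchoring protein, at 7579 and 2948, and Uts2, the motor neuron peptide urotensin 2, at 6582 and 2692. In sham+PSL these read 2726 and 2710.2 and 3096 and 4075. The deposited annotation places the Nrap probe on a stretch of only 8 bases, and whether it reads that gene was not tested. For Pip5k1a the brightest probe had 1.15 and the other probes -0.21 and -0.11.

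The genes with the lowest log2 ratios had several patterns over the 4 arrays. Gdpd3, a lysophospholipase, read 15.8 at ZT10 and 669 at ZT22, a log2 ratio of -5.41 ± 0.34, and 390 and 26.9 in sham+PSL, a log2 ratio of 3.85. High and low levels thus alternated between the operations. The level of 15.8 lay near the lowest that counted as well above background on its array, 12.8. Over the settings tried the log2 ratio of Gdpd3 in ADX+PSL ran from -5.41 to -3.10. Chil3, a chitinase-like protein of macrophages, read 48.8 and 636, and 836 and 1096 in sham+PSL. Defa-rs2, a defensin-related gene, read 94.9 and 1061, and 1638 and 1799 in sham+PSL. In both the ADX+PSL array at ZT10 was low and the other 3 arrays were within 2-fold of each other. Of the 12 genes with the lowest ratio 7 are named by a clone or locus number.

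Others were low at ZT10 in both operations. Fggy, a carbohydrate kinase, read 164 and 1333, a log2 ratio of -3.03 ± 0.21, and 28.0 and 1111 in sham+PSL, a log2 ratio of -5.31. All 4 of its probes, shown above, were lower in ADX+PSL, with log2 ratios of -3.23, -2.52, -2.76 and -3.03 in the order given. Nat8f4, an acetyltransferase gene, read 56.0 and 324, and 58.9 and 332 in sham+PSL, nearly the same 4 values in pairs. Cwc22, a splicing factor, had -1.86 and -3.40 by its probes, and -1.35 and -3.52 in sham+PSL. The probe with -3.52 read 14.3 in sham+PSL at ZT10 and was not well above background there. Gin1 had -2.08 and -2.40 by one probe, and 0.44 and -0.09 by the other. Other genes were low at ZT10 in ADX+PSL and not in sham+PSL. Fgf1, a fibroblast growth factor of neurons, read 7795 and 22645, a log2 ratio of -1.54 ± 0.20 with -1.24 from a second probe, and 18305 and 16589 in sham+PSL. Tescl had -2.45 ± 0.080 over 10 spots, at 29.9 and 164, and lay at or below background in sham+PSL.

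Where a gene had several probes they often differed. Of 4823 genes with at least 2 kept probes, 114 had some probe past 2-fold, and in 102 of these the probes did not all pass it the same way. The probes were all higher in 2 genes, C3 and Sult1a1, and all lower in 10, among them Fggy, Cwc22, Fgf1 and Tescl. Dbp was not a case of disagreement, with both probes past 2-fold.

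Beside the sham+PSL pair, which shares no array with the ADX+PSL pair but was normalised with it, the values of the genes past 2-fold stand as follows. Of 127 probes higher at ZT10, 116 were measured in sham+PSL, where 13 were at least 2-fold higher, 10 at least 2-fold lower, and the median log2 ratio was 0.07. Of 264 probes lower at ZT10, 204 were measured, with 33 lower, 17 higher and a median of -0.17. By gene, of 19034 measured on all arrays, 82 were at least 2-fold higher in ADX+PSL and 153 (0.804%) in sham+PSL, and 6 were so in both, which is 7.32% of the one list and 3.92% of the other. At least 2-fold lower were 152 in ADX+PSL and 189 (0.993%) in sham+PSL, and 24 in both, or 15.8% and 12.7%. Opposite directions occurred in 9 genes higher in ADX+PSL and 13 lower. With the time labels of the ADX+PSL arrays exchanged, these 22 genes would run the same way in both operations and the other 30 opposite ways. The 6 higher in both were Plin4, Etnppl, Sult2b1, Sult1a1, Cyp4f15, a P450 of fatty acids, and the locus Gm10272. Sult2b1, a cholesterol sulfotransferase, read 417 and 120 in ADX+PSL and 417 and 132 in sham+PSL, and Cyp4f15 read 271 and 114, and 258 and 71.7. For Sult2b1 time, as labelled, divided the 4 arrays into pairs of nearly the same level, and the operation did not.

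**Figure D5:**
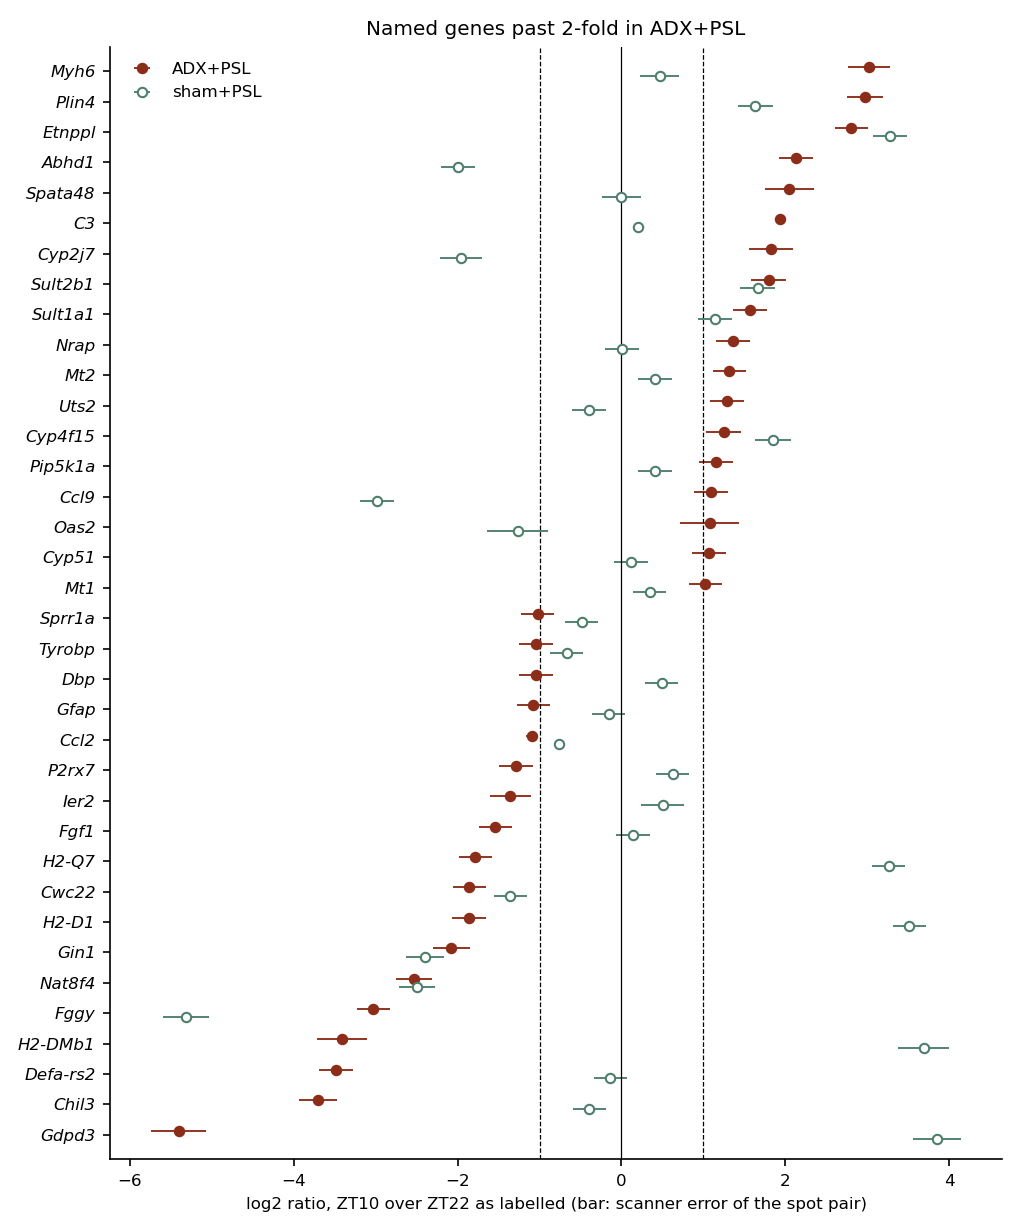
Log2 ratio of ZT10 over ZT22 in ADX+PSL (filled) and sham+PSL (open) for the 36 named genes past 2-fold in ADX+PSL and measured on all 4 arrays, with bars for the scanner error of the spot pair. Etnppl, Sult2b1, Nat8f4 and Gin1 have both points close together, while Gdpd3, H2-DMb1, H2-D1 and Abhd1 have them on opposite sides of 0.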

How the data were processed

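The authors hybridised Cy3-labelled cRNA of spinal cord RNA to 60-mer whole mouse genome arrays, 1 array per condition, and read spot intensity with Agilent Feature Extraction (10.7.1.1 per the file headers, 9.5.1.1 in the submitters' processing notes). The deposited intensity table, linear and quantile-normalised by the authors over the 4 arrays, was log2-transformed here. Quantile normalisation fixes the spread of levels, so a shift of most genes cannot be seen. A probe was well above background where over 50% of its spots were so flagged, and the brightest kept probe stood for a gene. Probes were named through accessions and symbols of RefSeq (GRCm38.p6), which named 21649 of 25376 kept probes. The lowest level above background was between 12.8 and 22.2 by array, and having 1 array per condition limits how precise any value is.

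With 1 array per condition a call is a ratio of 2 or more, with no p-value. Samples were grouped by the submitters' labels, against which the time ratios that the study printed for ADX+PSL run in reverse. The calling step was tested on simulated data. Genes named are all measured clock genes and 9 genes that bear on the study's other experiments, the 12 highest and 12 lowest log2 ratios, up to 8 genes each way whose probes all passed 2-fold, up to 4 per list past 2-fold or else the largest, the 6 each way among the 25% of genes with the highest levels, and up to 6 each way past 2-fold in both operations. Of some list members no value of their own is reported here. Other list members were named after their values were seen. The comparison, lists and members were chosen with earlier results of these data known. Alternatives used limma 3.58.1 in R 4.3.3, and other steps Python 3.11.15, numpy 2.4.6, pandas 2.3.3 and matplotlib 3.10.9.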

Additional observations from a re-analysis of the deposited data

Results flagged for a closer look

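Some of the named and listed genes had opposite directions in ADX+PSL and sham+PSL, each past 2 scanner errors of its spot pair. With 1 array per condition the difference between the operations was not tested. The opposite directions also rest on the time labels of the ADX+PSL arrays, and would become like ones if those were exchanged. The values here are the log2 ratio of ZT10 over ZT22 in sham+PSL minus that in ADX+PSL. Clock genes with this pattern were Dbp (1.53) and Nr1d1 (1.78). The histocompatibility genes differed by 5.37 (H2-D1), 7.11 (H2-DMb1) and 5.05 (H2-Q7). Gdpd3 had the largest value, at 9.26, and P2rx7 had 1.92, which rests on the brighter of its probes. Txnip had 0.97, and Hbb-b2, a red cell gene that was low on the sham+PSL array at ZT22, had 3.90. Higher in ADX+PSL and lower in sham+PSL at ZT10 were Abhd1 (-4.13), Ccl9 (-4.08), Cyp2j7 (-3.78), Oas2 (-2.34), Usp18 (-1.52), Oas1a (-1.49), Angptl4 (-1.75) and Nr4a1 (-1.03), and also the chemokine Cxcl10 (-1.40) and the meningeal transporter Slc13a4 (-2.73). The reverse held for Lum (1.94) of meningeal fibroblasts and for the vascular genes Ly6c1 (1.33) and Acta2 (1.09).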

How the results depend on the processing

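The counts of 127 probes higher and 264 lower at ZT10 depended on background and on the filter. With normexp background correction they were 52 and 73, and without background subtraction 47 and 67. With probes above background on either array they were 669 and 530, with no filter 1263 and 1138, and among probes above the median level of those kept 22 and 23. At a ratio of 1.5 they were 488 and 823. In a recount added after the data were seen, with the time labels of the ADX+PSL arrays exchanged, the counts became 264 higher and 127 lower, and every ratio and list median of the pair turned its sign. The other 16 recounts stayed within 1.5 times. Without normalisation the median of all kept probes moved to -0.10. List medians moved by less than the spot error in 287 of 288 recomputations, the exception being the cold shock pair, at -0.72 with the mean over a gene's probes. Of 704 recomputed ratios of 88 named genes 68 moved by more than the spot error, 53 of them under the 2 other background treatments, and in none of these did a 2-fold ratio change sign. Of 39 named genes past 2-fold 15 came within it in some setting. Without background subtraction these were Ak7 (0.60), Ccl2 (-0.90), Ccl9 (0.90), Cyp4f15 (0.82), Cyp51 (0.95), Fcgr1 (0.89), Ier2 (-0.55), Oas2 (0.35), Spata48 (0.996) and Sprr1a (-0.90), and by the mean over probes Gfap (-0.60), Gin1 (-0.82), Mt1 (0.68), P2rx7 (-0.80) and Pip5k1a (0.28). No paired analysis was possible because each condition has 1 array.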
